A study of Danio rerio with 25 samples.

Results

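The genes for the proteins of the cytosolic ribosome were examined in larvae of the zebrafish model of Duchenne muscular dystrophy. A gene was taken where its symbol begins with rpl or rps followed by a digit and is not a ribosomal S6 kinase (rps6k), and where it had at least 10 counts summed over all libraries. The rule found 80 genes of the 25832 genes tested, and all 80 passed the count minimum. Of these, 43 carry names of the large 60S subunit (rpl) and 37 names of the small 40S subunit (rps). Of the 80 genes, 5 are not ribosomal proteins in the strict sense: RPL7L1, RPL22L1, rps27l and rps11l are "like" genes, and rps19bp1 codes for a protein named for binding RPS19. Symbols are printed as the table of gene names gives them, so most are in the capitals of the human ortholog. The symbols RPL5 and RPS26, among others, each belong to a pair of Ensembl genes.

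RNA was taken at 7 days post-fertilization (dpf), and a library was made from the polyA+ RNA of 2 pooled whole larvae. The *dmd* mutants were of the sapje line (allele ta222a), which carries a loss-of-function *dmd* allele in the whole animal, and were told apart from their healthy WT siblings by muscle birefringence, so that the siblings may include carriers. The eNMES groups completed endurance neuromuscular electrical stimulation in 3 sessions, at 2, 3 and 4 dpf, and the control groups received none. Counts of 24 libraries were used. WT siblings gave 4 libraries without stimulation and 3 with eNMES, and *dmd* mutants gave 8 and 9. Replicate 1 of the *dmd* mutant eNMES group was not analysed here. Larvae had been sorted before extraction by severity at disease onset and by their change in birefringence, so libraries of a group were not drawn at random. No source says that the libraries of a group came from separate clutches, so p-values measure the spread between these libraries.

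Ribosomal proteins wrap the ribosomal RNA of each subunit, and a ribosome carries close to 1 copy of nearly every one. Their mRNAs begin with a terminal oligopyrimidine (TOP) tract, through which the TOR kinase sets how strongly they are translated, with LARP1 as the binding protein. For that reason the mRNA level reports the stock of templates and not the rate at which ribosomes are made. In growing larvae, and in muscle that gains mass, the supply of ribosomes is a limit on protein synthesis, and these transcripts are used as a readout of translation capacity.

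Total counts lay between 7957155 and 22808312 per library, with *dmd* mutant eNMES replicate 8 as the lowest. The *dmd* transcript averaged 3744 ± 1230 normalized counts (SD, n = 4) in WT sibling controls, 4164 ± 577 (n = 3) with eNMES, 1200 ± 94.7 (n = 8) in mutant controls and 1192 ± 130 (n = 9) in mutants with eNMES, and no mutant library reached the lowest WT library. Of 27 genes matched to 24 tissue marker symbols, 24 had at least 10 normalized counts in every library, among them markers of fast muscle (*myhz2*, *ckma*), liver (*fabp10a*), exocrine pancreas (*prss1*) and epidermis (*krt4*), as whole larvae hold. The exceptions were *hbae1.1* of red blood cells, *apoa4a* of the intestine and the rhodopsin-like entry with the fewest counts. In whole larvae, fewer cells of a type and less RNA per cell cannot be told apart.

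Levels were compared between genes in TPM, the share of transcripts, which corrects for length and depth. Among the 75 ribosomal proteins proper, 65 had at least 1000 TPM in WT sibling controls, and the 90th percentile was 5.61 times the 10th. The highest was RPS29, a zinc-binding protein of the 40S head that is mutated in some human Diamond-Blackfan anemias, at 6002 ± 251 TPM (SD, n = 4). It was followed by RPS9 at 5689 ± 306 TPM and by RPL23A, which lies near the exit of the nascent chain, at 5056 ± 193 TPM. RPS2 reached 5004 ± 329 TPM, RPL18 4834 ± 107 TPM, RPL34 4646 ± 287 TPM, RPL6 4532 ± 80.1 TPM and RPL28 4179 ± 317 TPM. RPS29 has an assigned length of 346 bases and had 5217 normalized counts on average in WT sibling controls. RPS2, of 919 bases, had 42763, so the first place of RPS29 rests on the correction for length. How that correction acts on such short transcripts was not tested. Genes of both subunits stood at the top of the order, and the median of the 41 large-subunit proteins, 2248 TPM, was close to that of the 34 small-subunit proteins, 2436 TPM.

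The low end of the order held the genes that are not ribosomal proteins proper. In WT sibling controls rps11l was at 1.32 ± 0.72 TPM, rps19bp1 at 12.6 ± 1.2 TPM, rps27l at 14.4 ± 1.96 TPM and RPL7L1, a factor of 60S assembly, at 47.9 ± 4.57 TPM. Among the low core entries were RPL35A at 212 ± 13.0 TPM and rps3, a 40S protein that also binds damaged DNA in human cells, at 325 ± 33.7 TPM. For both, the length the authors' tables assign is 3104 and 3493 bases, against a median of 668 over the 80 genes. Their normalized counts, 8026 and 15195 over all libraries, lay among those of the other members, so the low TPM goes with that length. Of the 79 neighbours in the order, 69 pairs had ranges over the 4 WT sibling controls that overlapped. The order was nearly the same in all 4 groups, with a Spearman coefficient over the 80 genes of 0.992 to 0.998 between any pair of group means, given as a description.

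**Figure D1:**
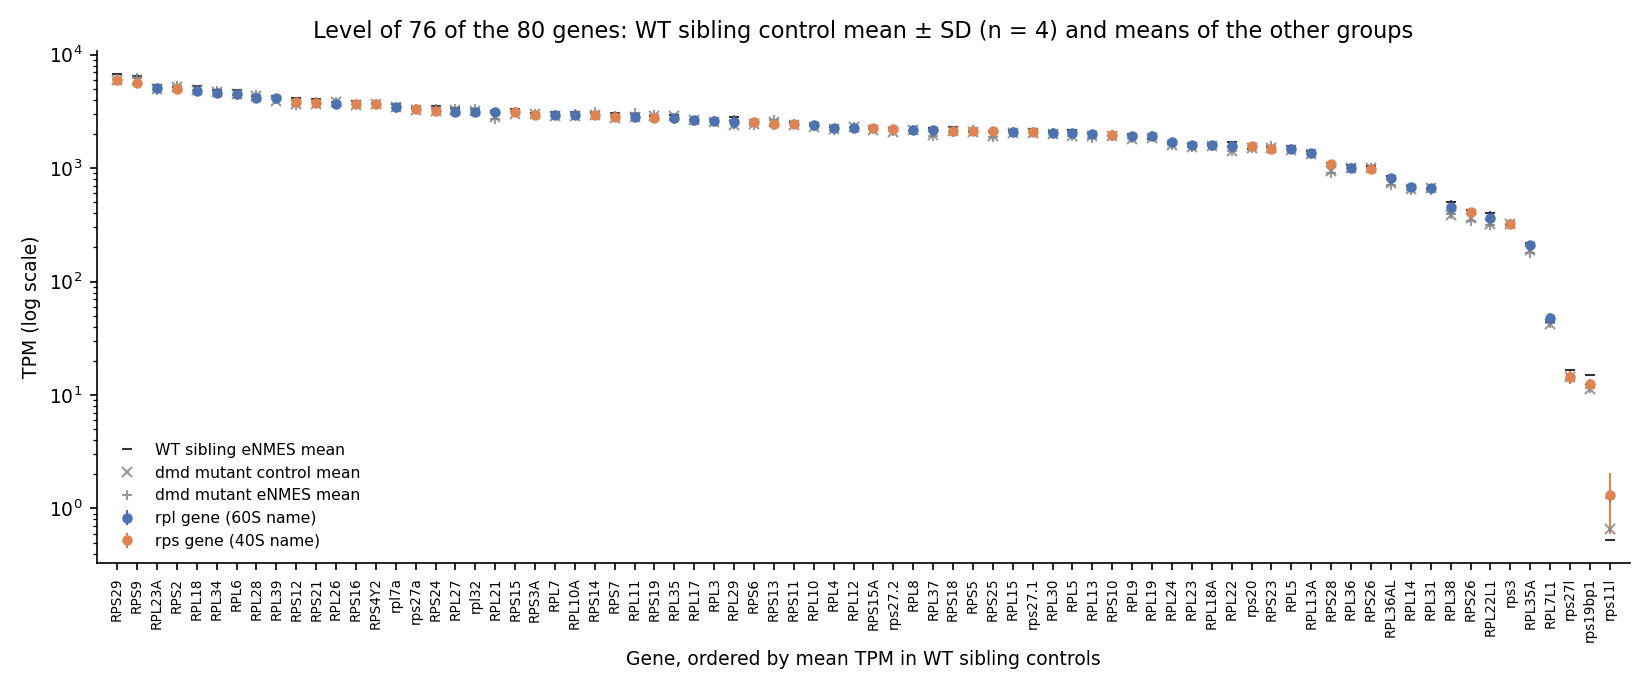
The level of 76 of the 80 genes in TPM on a log axis, ordered by the mean of WT sibling controls (coloured points with SD, n = 4; blue for rpl, orange for rps names), with the means of the other 3 groups as grey or black marks. The marks of all groups fall on the points for nearly every gene, from RPS29 at 6002 TPM down to rps11l at 1.32 TPM.

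Where zebrafish carry a pair of genes for a protein, the share of each copy varied little over libraries for most pairs. RPL5 and RPL11 form, with the 5S ribosomal RNA, a particle that binds the p53 regulator MDM2 when assembly fails. The RPL5 gene ENSDARG00000015862 gave 55.7% to 59.1% of the TPM of its pair over the 24 libraries. The gene rps27.1 gave 47.4% to 50.6% of its pair with rps27.2. RPL22 gave 79.8% to 82.7% of the sum with its paralog RPL22L1, whose mRNA is repressed by RPL22 in the mouse. The widest range was that of RPS26, a 40S protein at the mRNA exit that is mutated in human Diamond-Blackfan anemia. Its gene ENSDARG00000030408 gave 22.9% to 30.8% of the TPM of its pair over the 24 libraries. The mean share was 29.5 ± 1.27% (SD, n = 4) in WT sibling controls and 29.3 ± 1.1% (n = 3) with eNMES. It was 26.7 ± 1.40% (n = 8) in mutant controls and 25.6 ± 1.93% (n = 9) in mutants with eNMES. Reads shared between copies were divided by estimation, so the values of paralogs are uncertain.

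Over the 24 libraries the 80 genes took 4.79% to 5.53% of all counts, with a median of 5.05%, and 17.5% to 19.9% of the TPM. The mean share of counts was 5.21 ± 0.28% (SD, n = 4) in WT sibling controls, 5.32 ± 0.14% (n = 3) in WT siblings with eNMES, 5.11 ± 0.25% (n = 8) in mutant controls and 4.99 ± 0.12% (n = 9) in mutants with eNMES, and the ranges of the groups overlapped. After TMM scaling, edgeR's correction for the makeup of a library, the means were 5.23 ± 0.28%, 5.14 ± 0.23%, 5.12 ± 0.24% and 5.03 ± 0.18% in the same order. The order of the WT groups thus turned with the scaling. Leaving the 80 genes out of the scaling moved no library by more than 0.0819%.

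Libraries of the same group differed from each other more than the groups did, and the genes moved together when they did. The median over the 80 genes of the log2 difference from the WT sibling control mean was 0.02, -0.11, 0.08 and -0.01 in WT sibling control replicates 1 to 4. It was -0.10, 0.05 and -0.03 in the 3 WT sibling eNMES libraries. In *dmd* mutant controls it lay between -0.17 in replicate 3 and 0.08 in replicate 2, with a median of -0.05, and in *dmd* mutants with eNMES between -0.14 in replicate 5 and 0.02 in replicate 2, with a median of -0.07. In replicate 3 of the mutant controls 79 of the 80 genes were below the WT sibling control mean, and in replicate 2 of that group 5 were.

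The common movement was measured after the group means were taken out. Over the 24 libraries the median correlation of a gene with the mean of the others was 0.81, and 74 of 80 genes were above 0.5. Among 2854 other genes with a mean of at least 1000 normalized counts the median correlation with the same mean was 0.03, and 3.19% were above 0.5. RPL34 and RPS25 followed the others most closely, at 0.96 each. Among those that followed least were rps11l, at -0.17, and rps19bp1, at 0.27. One component held 65.3% of the variance of the members between libraries of a group and the next 12.3%. The points share library, depth and scaling, so these values are a description.

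The spread between libraries of a group was small for nearly all members. The median SD of log2 normalized counts within groups was 0.09 over the 80 genes, against 0.21 over all genes tested and 0.10 over the other genes with at least 1000 normalized counts. The steadiest was rpl7a, a 60S protein, with an SD of 0.04, and its normalized counts were 31693 to 33019 in WT sibling controls. RPS28, RPL38, rps27l, RPL29 and RPL7L1 varied most among genes with at least 50 counts, with an SD of 0.20, 0.19, 0.19, 0.19 and 0.18.

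**Figure D2:**
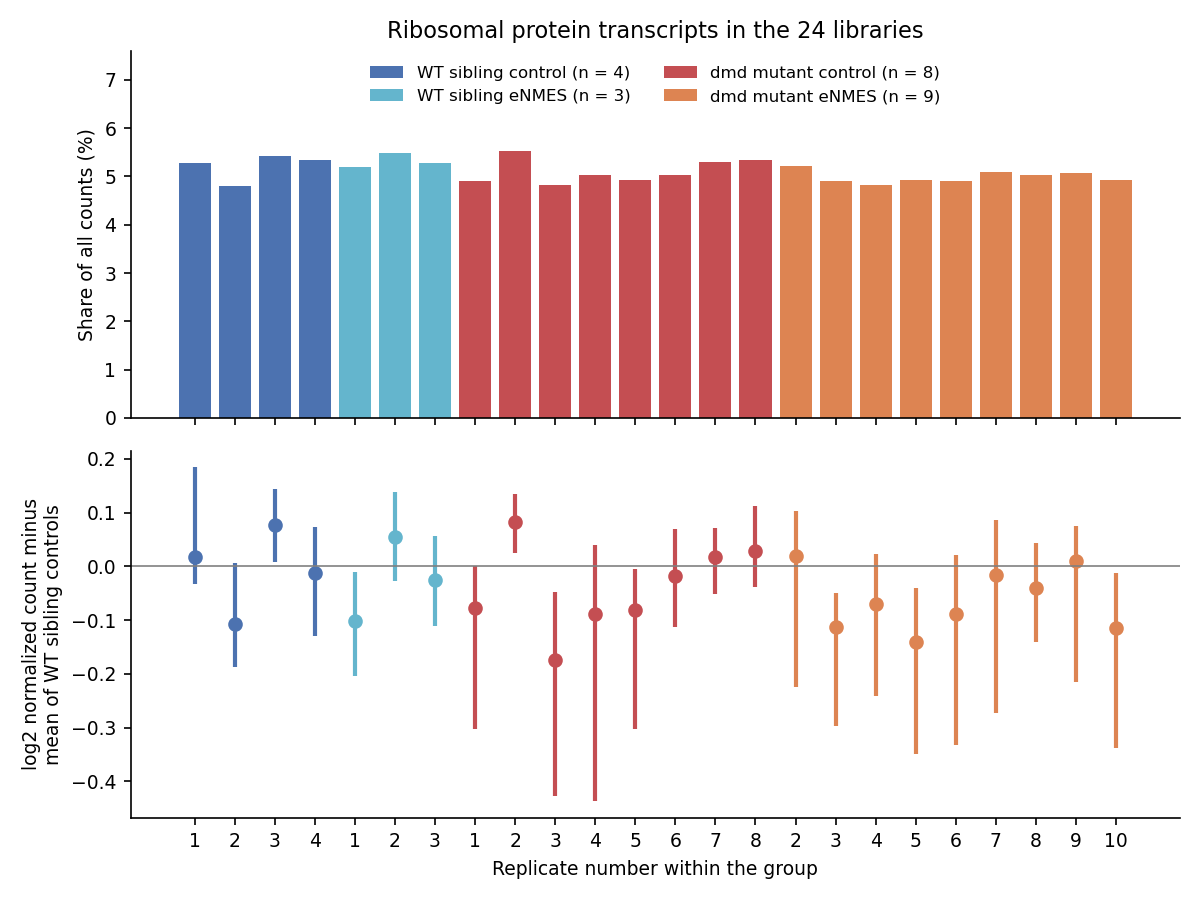
Top: the share of all counts (%) that the 80 genes took in each of the 24 libraries, as bars by group, all between 4.79% and 5.53%. Bottom: for each library the median over the 80 genes (point) and the 10th to 90th percentile (line) of the log2 normalized count minus the mean of WT sibling controls, with medians from -0.17 to 0.08 and long lower ends in many *dmd* mutant libraries.

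The first comparison asked what eNMES changed in healthy larvae, 3 days after the last session. None of the 80 genes changed in WT siblings at an adjusted p under 0.1 (edgeR's quasi-likelihood test, Benjamini-Hochberg over all genes), where 6.48% of all genes did. Over all genes the count, 1675, was itself unsteady, and it was 706 and 936 without WT sibling control replicates 1 and 3 and 407, 711 and 492 without WT sibling eNMES replicates 1, 2 and 3. None was called with a log2 fold change beyond 0.6 as well, where 2.95% of all genes were. At an unadjusted p under 0.05, 1 gene passed with edgeR, where 17.5% of all genes did, and 3 passed with DESeq2. DESeq2 gave 0 genes at an adjusted p under 0.1. The median log2 fold change was -0.03, against 0.01 over all genes and -0.03 over the other genes with at least 1000 counts. Its sign turned under scaling to total counts, where it was 0.03. Of the members 23 of 80 were above 0, against 51.2% of all genes. The other genes with at least 1000 counts also had a median below 0. As the members move together between libraries, a count of their signs is a description. For 79 genes the 95% interval of the log2 fold change lay within 0.6 on either side of 0, and for 66 within 0.3, and rps11l was the exception to the first count with 0 to 7.30 normalized counts per library.

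The gene with the smallest p in WT siblings was rps19bp1, with 310, 372, 328 and 310 normalized counts in the 4 controls and 377, 366 and 409 in the 3 eNMES libraries. All but 1 control were lower than every eNMES library. It passed when WT sibling control replicate 2 was left out (adjusted p = 0.0824, edgeR), and with all libraries the log2 fold change was 0.22 ± 0.08 (SE, adjusted p = 0.153, edgeR). Among genes with at least 50 counts the next was RPL19, a 60S protein, at -0.15 ± 0.07 (SE, adjusted p = 0.299, edgeR), followed by RPL8 at -0.11 ± 0.06 (adjusted p = 0.364, edgeR). RPS6, the substrate of the S6 kinases, had a log2 fold change of -0.10 ± 0.07 (adjusted p = 0.542, edgeR), RPL3 of the peptidyl transferase region -0.03 ± 0.06 (adjusted p = 0.86, edgeR), and RPL11 0.00 ± 0.06 (adjusted p = 0.988, edgeR).

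The second comparison asked the same of *dmd* mutants. None of the 80 genes changed at an adjusted p under 0.1 with edgeR or DESeq2, where 0.414% of all genes did with edgeR, and none was called with the fold minimum, where 0.128% of all genes were. The count over all genes, 107, was 32 without *dmd* mutant control replicate 2 and 210 without *dmd* mutant eNMES replicate 2, and between 39 and 65 without control replicate 1, 3 or 7 or eNMES replicate 5, 6, 7, 8 or 10. At an unadjusted p under 0.05, 2 genes passed with edgeR, where 10.3% of all genes did, and 3 passed with DESeq2. The median log2 fold change was -0.03, against 0.00 over all genes and 0.00 over the other genes with at least 1000 counts. Of the members 17 of 80 were above 0, against 48.6% of all genes, and this count, too, is of genes that move together. The interval lay within 0.6 on either side of 0 for 79 genes and within 0.3 for 76, so this comparison, with 8 and 9 libraries, left the narrowest range. The smallest p was that of RPL35, a 60S protein beside the exit tunnel, with 8317 to 11992 normalized counts and a median of 9928 in controls and 8471 to 10218 with a median of 8918 with eNMES. The groups overlapped, and the log2 fold change was -0.15 ± 0.06 (SE, adjusted p = 0.395, edgeR). RPL21 followed at -0.11 ± 0.05 (adjusted p = 0.46, edgeR), and RPL11 had the largest increase of a gene with over 1000 counts, 0.05 ± 0.04 (adjusted p = 0.748, edgeR).

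The order in which the libraries are listed sets the mutants into runs, of which 4 hold both treatments, in 16 libraries. Within them the median over the 80 genes of eNMES minus control was 0.00 (3 control and 2 eNMES libraries), 0.00 (2 and 3), -0.04 (2 and 2) and -0.14 (1 and 1) on the log2 scale. All 7 WT sibling libraries form 1 run of their own, so genotype and run cannot be told apart. The labels do not say that such a run is a batch.

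The change with eNMES was compared between the genotypes by an interaction term. None of the 80 genes passed an adjusted p of 0.1 with edgeR or DESeq2, where 2.81% of all genes did with edgeR, and none passed with the fold minimum, where 1.85% of all genes did. The count over all genes, 725, was 56 without WT sibling eNMES replicate 3, 182 and 225 without replicates 2 and 1 of that group, and 214, 447 and 263 without WT sibling control replicates 1, 2 and 3. It was 451, 433 and 1237 without *dmd* mutant control replicates 2, 3 and 6. At an unadjusted p under 0.05, where 14.5% of all genes passed with edgeR, 1 gene passed with each tool. That gene was rps11l with edgeR, with 72 counts summed over all libraries, a log2 difference of 2.17 and an interval from 0.34 to 3.99 (adjusted p = 0.24, edgeR). The next was rps19bp1, at -0.20 with an interval from -0.41 to 0.00 (adjusted p = 0.354, edgeR). The median difference was -0.01, the same as over all genes, and the interval lay within 0.6 on either side of 0 for 78 genes and within 0.3 for 59.

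**Figure D3:**
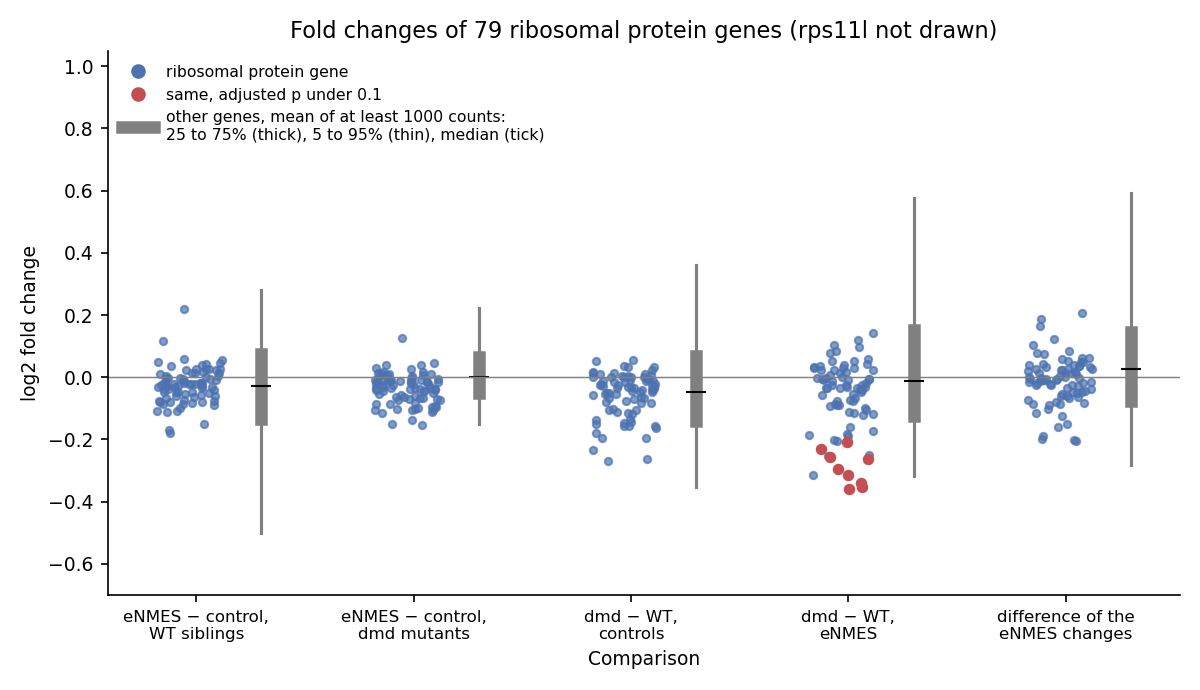
The log2 fold change of 79 of the 80 genes (points; rps11l, with too few counts, is not drawn) in the 4 group comparisons and in the difference of the eNMES changes, with grey bars (thick for the middle quartiles, thin for the 5th to 95th percentile, tick for the median) for 2854 other genes with a mean of at least 1000 normalized counts. The 9 red points, all in the comparison of *dmd* mutants with WT siblings after eNMES, are the genes with an adjusted p under 0.1, and they lie between -0.36 and -0.21.

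The third comparison set *dmd* mutant controls against WT sibling controls. None of the 80 genes differed at an adjusted p under 0.1 with edgeR or DESeq2, where 10.9% of all genes did with edgeR, and none was called with the fold minimum, where 3.12% of all genes were. The count over all genes, 2805, was 1487, 1807 and 1411 without WT sibling control replicates 1, 2 and 3. At an unadjusted p under 0.05, 5 genes passed with edgeR, all lower in mutants, where 21.8% of all genes passed. With DESeq2 6 genes passed. The median log2 fold change was -0.04, against 0.01 over all genes and -0.05 over the other genes with at least 1000 counts. Of the members 19 of 80 were above 0, against 51.6% of all genes. This is again a description, and the other genes with at least 1000 counts had a median below 0 as well. The smallest p belonged to RPL21, at -0.16 ± 0.06 (SE, adjusted p = 0.154, edgeR), followed by RPL29 at -0.26 ± 0.12 (adjusted p = 0.196, edgeR) and RPL38 at -0.27 ± 0.12 (adjusted p = 0.197, edgeR). Leaving out WT sibling control replicate 4 gave 2 genes, and leaving out *dmd* mutant control replicate 2, 7 or 8 gave 1.

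Proteins with roles outside the ribosome showed no difference between the control groups that passed the test. The log2 fold change was -0.01 ± 0.05 for RPL11 (adjusted p = 0.96, edgeR) and -0.06 ± 0.04 for the RPL5 gene ENSDARG00000015862 (adjusted p = 0.499, edgeR). It was 0.00 ± 0.05 for RPS19, the gene most often mutated in human Diamond-Blackfan anemia (adjusted p = 0.996, edgeR), and -0.04 ± 0.05 for RPL10, which closes the maturation of the 60S subunit (adjusted p = 0.681, edgeR). In mutant controls 8 of 27 tissue marker genes were higher than in WT sibling controls and 1 was lower. That is 33.3% of the marker genes, against 10.9% of all genes. The part of tissue makeup in the values of the ribosomal protein genes was not tested.

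Only the comparison of *dmd* mutants with WT siblings after eNMES had members at an adjusted p under 0.1 in edgeR's main fit or DESeq2. Their share was near that of all genes in either direction. Of the 80 genes, 9 were lower in mutants at an adjusted p under 0.1 and 0 were higher, which is 11.2% of the members, against 12.3% of all genes in either direction and 5.57% of all genes in the lower direction. The count was 10 with DESeq2, for which the share of all genes is not given here. None was called with the fold minimum, where 3.94% of all genes were. The 9 genes were rps19bp1, RPL22, RPL22L1, RPS26 (ENSDARG00000030408), RPL35, RPL21, RPL35A, RPS29 and RPL38. The median over all 80 genes was -0.03, against 0.00 over all genes and -0.01 over the other genes with at least 1000 counts. Below 0 were 56 of 80, and 30.0% of the members were above 0, against 50.4% of all genes. The members move together, so these signs are a description here as well. Groups did not overlap for 4 genes, rps19bp1, RPL38, RPL39 and the RPL5 gene ENSDARG00000015862, while 8.53% of all genes did not overlap. In this comparison, too, 8 of 27 tissue marker genes were higher and 1 was lower in mutants. That is 33.3% of the marker genes, against 12.3% of all genes, and their part was not tested.

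RPL22, a 60S protein that also binds viral and telomerase RNA and is needed for T cell development in the mouse, had 6823, 8050 and 7715 normalized counts in the 3 WT sibling eNMES libraries. In the 9 mutant eNMES libraries it had 5627 to 6858 with a median of 6206, and 8 of the 9 were below all 3 WT libraries. The log2 fold change was -0.30 ± 0.08 (SE, adjusted p = 0.0312, edgeR). Controls had 7975, 7331, 7492 and 6425 counts in WT siblings and 5736 to 7815 with a median of 6521 in mutants, where the difference was -0.15 ± 0.08 (adjusted p = 0.278, edgeR).

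RPL22L1 had 1246, 1505 and 1463 normalized counts in WT siblings with eNMES and 1039 to 1252 with a median of 1096 in mutants with eNMES. Only the mutant replicate 8, at 1252, reached the lowest WT library, and the log2 fold change was -0.35 ± 0.10 (SE, adjusted p = 0.0378, edgeR). In controls it had 1595, 1431, 1299 and 1087 in WT siblings and 949 to 1348 with a median of 1200 in mutants. The paralogs RPL22 and RPL22L1 were thus both lower, and the share of RPL22 in their sum was 80.7 ± 0.42% (SD, n = 3) and 81.9 ± 0.51% (n = 9).

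RPL38, whose loss in the mouse lowers the translation of Hox mRNAs and alters the axial skeleton, had 1794, 2238 and 2119 normalized counts in WT siblings with eNMES. Mutants with eNMES had 1452 to 1775 with a median of 1596, all below the WT libraries by a narrow margin. The log2 fold change was -0.36 ± 0.13 (SE, adjusted p = 0.0981, edgeR). Its control libraries were spread widely, with 2410, 2048, 2034 and 1719 in WT siblings and 1180 to 2125 with a median of 1732 in mutants.

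The 40S proteins RPS29 and RPS26 were lower as well. RPS29 had 4725, 5858 and 5603 normalized counts in WT siblings with eNMES and 3897 to 4871 with a median of 4109 in mutants with eNMES, at -0.34 ± 0.12 (SE, adjusted p = 0.0812, edgeR). RPS26 (ENSDARG00000030408) had 6110, 7383 and 6918 against 5030 to 6472 with a median of 5638, at -0.26 ± 0.09 (adjusted p = 0.0637, edgeR). In both genes 8 of 9 mutant libraries were below every WT library. The other RPS26 gene had 1522, 1934 and 1747 against 1396 to 1842 with a median of 1578, and -0.12 ± 0.11 (adjusted p = 0.546, edgeR).

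The 60S proteins RPL35, RPL21 and RPL35A were lower too. RPL35 had 9906, 11553 and 11142 normalized counts in WT siblings with eNMES and 8471 to 10218 with a median of 8918 in mutants, at -0.26 ± 0.09 (SE, adjusted p = 0.0638, edgeR). RPL21 had 11679, 12714 and 12857 against 9785 to 11845 with a median of 10801, at -0.21 ± 0.07 (adjusted p = 0.0696, edgeR). RPL35A, mutated in some human Diamond-Blackfan anemias, had 8076, 9395 and 8845 against 6896 to 8188 with a median of 7518, at -0.23 ± 0.08 (adjusted p = 0.0761, edgeR). Again 8 of 9 mutant libraries were below every WT library in each.

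The gene with the smallest p was rps19bp1, which codes for a binding partner of RPS19 and, in human cells, of the deacetylase SIRT1. It had 377, 366 and 409 normalized counts in WT siblings with eNMES and 280 to 349 with a median of 314 in mutants with eNMES, and all 9 mutant libraries were lower. The log2 fold change was -0.31 ± 0.07 (SE, adjusted p = 0.00885, edgeR). Mutant controls, with 284 to 331 and a median of 304, were close to mutants with eNMES, and WT sibling controls, with 310 to 372, lay between.

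The count of 9 rested on single WT libraries. The count over all genes, 3181, also fell, to 1723, 1583 and 1244 without WT sibling eNMES replicates 1, 2 and 3. The count of members was 0 without WT sibling eNMES replicate 3, 1 without replicate 2 and 9 without replicate 1, of which 7 were among the first 9. It was 3 without *dmd* mutant eNMES replicate 10 and 5 without replicate 5. Under scaling to total counts it was 25, with all 9 among them, and in a fit of the eNMES groups alone it was 15, with all 9 among them. The share of all genes called in those fits is not set beside these counts. They therefore do not show a change particular to the members. Over 32 alternative fits the log2 fold change kept its sign for each of the 9 genes, from -0.44 to -0.29 for RPL38 and from -0.38 to -0.26 for rps19bp1. The adjusted p was under 0.1 in 31 fits for rps19bp1, 30 for RPL22 and RPL22L1 and 13 for RPL38. The 32 fits include those without a control library, which is in neither of the groups compared, so these tallies overstate how far the result was tried.

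**Figure D4:**
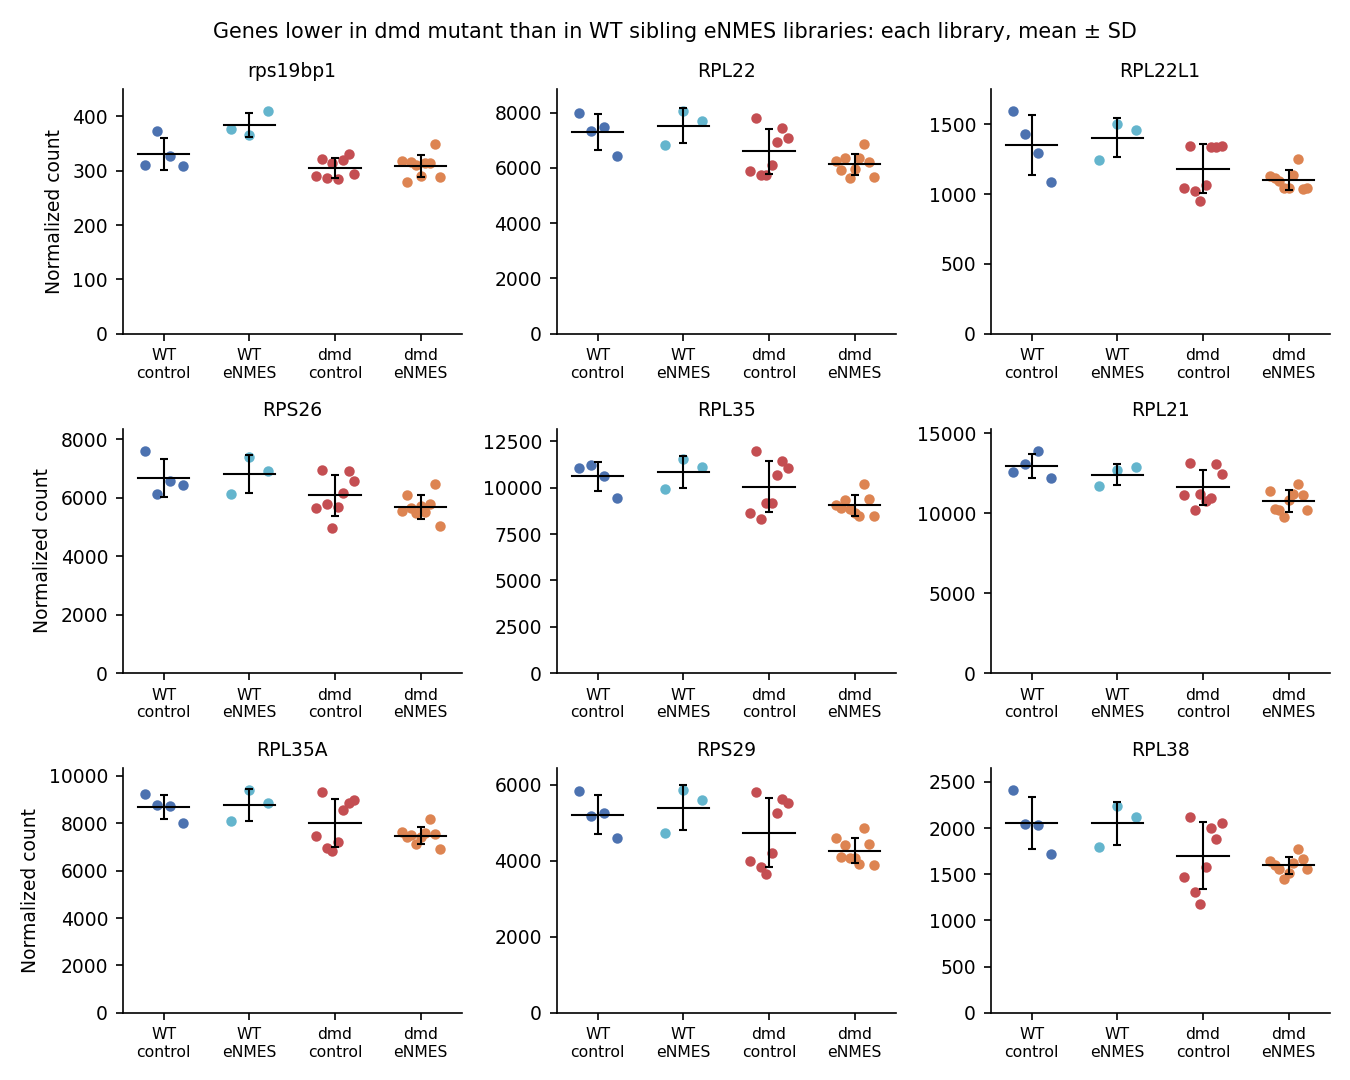
Normalized counts of the 9 genes lower in *dmd* mutants than in WT siblings after eNMES, 1 panel per gene, with a point for each library in the 4 groups and the mean ± SD as black lines, on axes that start at 0. In 7 panels 8 of 9 mutant eNMES libraries are below the 3 WT sibling eNMES libraries and in the panels of rps19bp1 and RPL38 all 9 are, while mutant controls overlap the WT sibling eNMES libraries in every panel but that of rps19bp1.

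The mutant libraries with low values of these genes were also low in the shortest transcripts. Of the 79 members with a mean of at least 50 counts, 10 had a length under 500 bases in the authors' tables, among them RPS29, RPL29, RPS21, RPL39, RPL34, the RPS26 gene ENSDARG00000037071, rps20, RPL27 and RPS15. For each library the median log2 difference of these 10 from the WT sibling control mean was set against that of the 69 longer genes. The short genes were within 0.07 of the longer ones in all 7 WT libraries, at 0.07, 0.02, -0.02 and -0.03 in controls and -0.02, 0.01 and 0.01 with eNMES. Among mutants they were lower by more than 0.05 in 12 of 17 libraries. Of the controls, replicates 1, 3, 4 and 5 were at -0.12, -0.13, -0.33 and -0.08, and replicates 2, 6, 7 and 8 at 0.01, 0.03, 0.03 and 0.05. With eNMES 8 of 9 mutant libraries were between -0.19 and -0.08, and replicate 8, with the fewest counts, was at -0.01.

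The spread within groups followed length too. The median SD within groups was 0.12 for the 10 short and 0.08 for the 69 longer genes, and the Spearman coefficient of SD with length over the 79 genes was -0.38. The 10 short genes had at least 1682 normalized counts on average, so counting error is small beside these values. In the comparison of mutants with WT siblings after eNMES the median log2 fold change was -0.11 for the short and -0.03 for the longer genes, and in mutants with eNMES against controls -0.07 and -0.03. Among genes that are not members, with at least 1000 counts, 10 were under 500 bases, and their median was -0.11 in the first of these comparisons and -0.09 in the second, against -0.01 and 0.00 for the 2844 longer ones. Over all these non-members the Spearman coefficient of fold change with length was -0.13 and 0.05, against 0.32 and 0.35 over the 79 members. With eNMES in WT siblings the short non-members were at -0.10 and the longer at -0.03. The short and longer members were at -0.02 and -0.03 there. Of the 9 genes that were lower after eNMES, RPS29 was the single one under 500 bases. The length of 500 bases was chosen with the data in view, and the part of library preparation or RNA quality in this pattern was not tested. Nor was the part of the order of the libraries, in which the WT siblings form a run of their own.

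**Figure D5:**
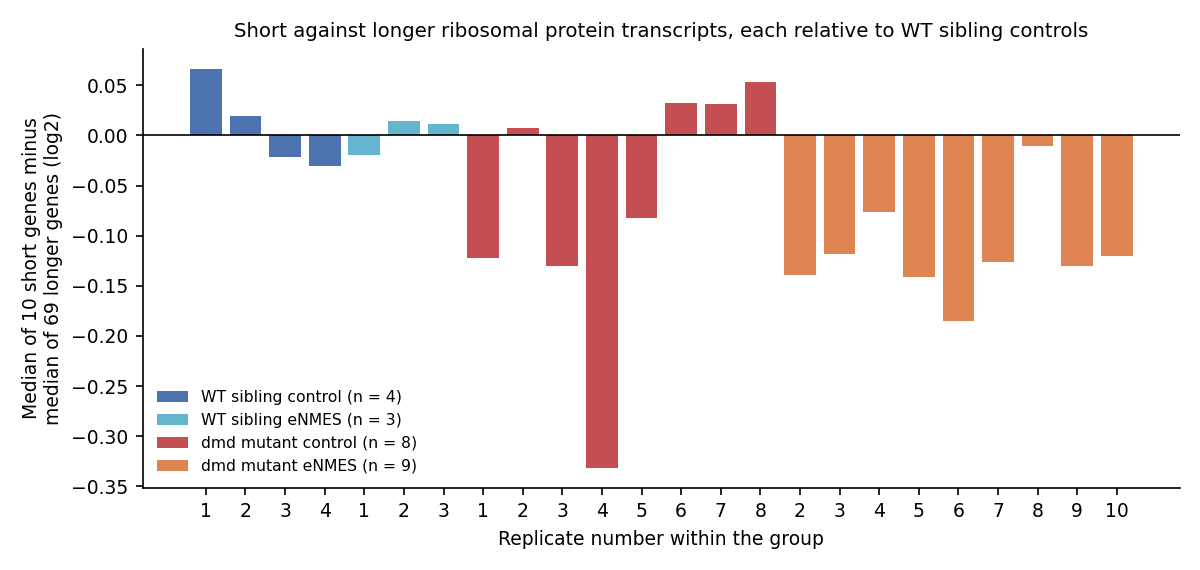
For each of the 24 libraries, the median log2 difference from WT sibling controls of the 10 genes under 500 bases minus that of the 69 longer genes, as bars by group. WT sibling libraries lie between -0.03 and 0.07, *dmd* mutant controls between -0.33 and 0.05, and *dmd* mutants with eNMES between -0.19 and -0.01.

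The remaining parts of the translation machinery were taken from lists. The 9 ribosomal proteins that the naming rule misses, such as the stalk proteins and RACK1, had 0 genes at an adjusted p under 0.1 in all 5 comparisons (edgeR), with a median of -0.10 for eNMES in WT siblings and -0.04 in mutants. In the same order, elongation factors (14 genes) had medians of -0.01 and -0.01, other TOP mRNAs (15 genes) 0.01 and -0.01, and the mitochondrial ribosomal proteins (75 genes), which serve the ribosomes inside mitochondria, 0.01 and -0.03, and none of these 3 lists had a gene that changed with eNMES. In *dmd* mutants no gene of any list changed with eNMES.

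In WT siblings with eNMES, 4 of 43 initiation factors fell and 0 rose, which is 9.30% of the list, against 6.48% of all genes. In the same comparison 4 of 27 tissue marker genes were lower and 0 higher, which is 14.8% of them. Among the lower ones were *krt4* of the epidermis at -0.47 and *tfa* of the liver at -0.45. The part of the marker genes in the values of these lists was not tested. Whether the calls in these lists held without single libraries was not examined. The count over all genes in this comparison, 1675, fell to as few as 407 when 1 library was left out. Among the initiation factors that fell were *eif4a1a*, an RNA helicase of the cap complex, at -1.82 (adjusted p = 0.0277, edgeR), and *eif4e1c*, a cap-binding protein, at -1.13 (adjusted p = 0.028, edgeR). The EIF4G2 gene ENSDARG00000020377 at -0.80 (adjusted p = 0.0311, edgeR) and EIF4E at -0.52 (adjusted p = 0.0627, edgeR) were the others. The level of *eif4a1a* fell from 4461 ± 1034 (SD, n = 4) to 1259 ± 189 (n = 3) normalized counts in WT siblings and was 2562 ± 1089 (n = 8) and 2463 ± 1108 (n = 9) in mutant controls and mutants with eNMES. The change with eNMES differed between the genotypes for *eif4a1a*, *eif4e1c* and EIF4G2 (ENSDARG00000020377) by the interaction term, and for no other initiation factor.

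Of 87 genes of ribosome biogenesis, 4 fell in WT siblings with eNMES and 1 rose, and their share of 5.75% was below that of all genes. RRS1, which brings the 5S particle into the 60S precursor in yeast, fell at -1.35 (adjusted p = 0.0273, edgeR), PES1 of the PeBoW complex at -0.44 (adjusted p = 0.0223), GNL3 at -0.43 (adjusted p = 0.0855) and MYC, which drives ribosome production, at -0.40 (adjusted p = 0.0835), and LAS1L, an endonuclease that processes the spacer of the 60S precursor RNA, rose at 0.24 (adjusted p = 0.0856). Of 27 genes of the TOR pathway 5 rose and 1 fell, which is 22.2% of the list, against 6.48% of all genes. The TSC1 genes, inhibitors of TOR, rose at 0.34 (ENSDARG00000057918, adjusted p = 0.0112, edgeR) and 0.32 (ENSDARG00000026048, adjusted p = 0.0465), *akt1s1*, another inhibitor, at 0.28 (adjusted p = 0.0421), *pdcd4a*, an inhibitor of eIF4A, at 0.39 (adjusted p = 0.0627) and SESN1 at 0.51 (adjusted p = 0.0985), and *sesn2* fell at -0.90 (adjusted p = 0.0231).

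Between the control groups 12 of 87 biogenesis genes were lower in *dmd* mutants and 1 was higher, and after eNMES 17 were lower and 5 higher. These are 14.9% and 25.3% of the list, against 10.9% and 12.3% of all genes. GNL2 was at -0.35 (adjusted p = 0.0023, edgeR), nucleolin (*ncl*) at -0.25 (adjusted p = 0.00237) and RRP12, which exports both subunits in yeast, at -0.39 (adjusted p = 0.00546) in controls. NMD3, the export adapter of the 60S subunit, was at -0.42 (adjusted p = 0.0235). Initiation factors were lower in mutants for 6 genes and higher for 0 in controls, with EIF3B at -0.85 (adjusted p = 0.00914, edgeR), and lower for 4 and higher for 3 after eNMES, which is 14.0% and 16.3% of the list. Cytosolic tRNA synthetases (24 genes) were lower for 3 and higher for 0 in controls, with EPRS1 at -0.33 (adjusted p = 0.0367, edgeR), and lower for 3 and higher for 1 after eNMES, which is 12.5% and 16.7% of the list. Genes of the TOR pathway were lower for 2 and higher for 1 in controls, and lower for 4 and higher for 1 after eNMES. These are 11.1% and 18.5% of that list. Other lists had higher genes in mutant controls. Mitochondrial ribosomal proteins were higher for 3 and lower for 0, with MRPS18A at 0.38 (adjusted p = 0.0121, edgeR), and after eNMES 1 was higher and 1 lower. These are 4.0% and 2.67% of that list, below the 10.9% and 12.3% of all genes. Among elongation factors EEF2K, the kinase that inhibits eEF2, was higher at 0.28 (adjusted p = 0.0104, edgeR) and none was lower, and after eNMES none passed. In controls that is 7.14% of the list, also below all genes. Of the 15 other TOP mRNAs, 2 were higher and 1 was lower in controls, a share above the 10.9% of all genes. After eNMES 1 was higher and 1 lower, which is 13.3% of that list, against 12.3% of all genes. The median over the biogenesis list was -0.09 in controls and 0.02 after eNMES, against 0.01 and 0.00 over all genes.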

How the data were processed

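The authors trimmed 150 bp paired reads with Trimmomatic, mapped them with bowtie 1.1.2 and estimated counts with RSEM 1.2.31 on the Ensembl zebrafish transcriptome. The submitters' processing notes name GRCz11. The deposited tables hold expected (estimated) counts and TPM per gene, without a filter, and a length for each gene. In a library 24.3% to 35.5% of genes had a count that was not whole, since RSEM divides reads that fit several genes.

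Counts were rounded. Genes with at least 10 counts in all were tested (25832) with edgeR 4.0.16 in R 4.3.3 (quasi-likelihood, TMM, robust, 1 fit of 4 groups), with Benjamini-Hochberg adjustment over all genes. SE were derived from the F statistic, and intervals are 95%. Normalized counts are counts at the mean effective library size. The biological coefficient of variation was 0.154, so spread between libraries, not depth, set the precision. Replicate numbers were not treated as pairs in the main fit. Alternatives were DESeq2 1.42.0, other scalings and filters, blocks and leaving out each library. Procedures were tested on simulated data.

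The members and gene lists were chosen with earlier results of these data known. Named genes were those with the smallest p or extreme fold changes, levels or spread, those with known roles, and paralogs. The text gives part of the genes this rule covers, picked after values were seen. Gene lists were matched by symbol, or by the symbol without its paralog suffix. Summaries used Python 3.11.15 with pandas 2.3.3 and numpy 2.4.6. Results for a few members are not reported here. No sequence or position is given.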

Additional observations from a re-analysis of the deposited data

Results flagged for a closer look

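RPL22L1 in *dmd* mutant eNMES replicate 8, at 1252 normalized counts, stood apart from the other 8 libraries of its group, which had 1039 to 1138. This was 1 of 36 tests of the highest and lowest library of a group, over library summaries and the 9 genes that were lower in mutants, and about 1 in 20 such tests is past the limit by chance. Replicate 8 also had the fewest counts, 7957155.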

How the results depend on the processing

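In *dmd* mutants the number of ribosomal protein genes that changed with eNMES was 0 under every alternative run, including the order of the libraries as a block, and the interaction count was 0 in the same way. In WT siblings it was 1 (rps19bp1) under total counts and 0 to 1 when a library was left out (1 without WT sibling control replicate 2). Mutant against WT sibling controls gave 4 with the replicate number as a block (RPL38, RPL22L1, RPL21 and RPL29, all lower) and 0 to 2 when a library was left out. Mutants against WT siblings after eNMES gave 9, and 25 under total counts, 15 in a fit of these groups alone, 5 with the replicate block, 3 at an adjusted p of 0.05 and 0 to 11 when a library was left out. The number with the fold minimum was 0 throughout. For most of these alternatives the share of all genes called is not given, so the member counts are not set against it. Medians moved by less than the spread between libraries. The median in WT siblings was 0.03 under total counts and 0.002 without WT sibling control replicate 3, and that of the interaction lay between -0.07 and 0.04 over all alternatives. For single genes 12709 alternative values kept their side of the threshold, 48 lost it and 38 gained it. Of the values that passed in the main or the alternative fit, 0 changed sign. Sign changes of genes that passed in neither were not counted.

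For libraries with the same replicate number, correlations of the deviations lay between -0.08 and -0.04 in WT siblings and between -0.14 and 0.24 in mutants. Of 20 libraries, 6 correlated best with their own number. No chance level was set for that count, so it does not decide whether the numbers pair libraries. With members of at least 500 bases only, chosen after seeing the data, the medians were -0.03, -0.03, -0.03, -0.03 and 0.00 in the order of the 5 comparisons. The number after eNMES was 8 and the others were 0. This setting only takes a part of the main fit, and RPS29 was the single called member under that length. These counts thus followed from the main fit and do not test the part of length. Counts were too few only for rps11l, with 72 in all.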
